A study of Mus musculus with 20 samples.

Results

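Mammary luminal cells that expressed the PIK3CA H1047R oncogene were compared in mice between a Sca1-positive and a Sca1-negative sort gate, over all genes measured. The comparison uses 5 of the study's 20 arrays, chosen by their titles: replicates 1 and 3 of the Sca1-positive gate (n = 2) and replicates 1, 2 and 3 of the Sca1-negative gate (n = 3). Both groups came from K8-creERT2/PIK3CA H1047R mice of mixed FVB/CD-1 background, taken 4 weeks after tamoxifen. Both were sorted as CD45-negative, CD24-high and GFP-positive cells, where GFP marks the cells that express the mutant, which tamoxifen switched on. The keratin 8 (K8) driver of the inducible Cre limits the model to cells in which K8 was active at the time of tamoxifen, and their progeny. The same 2 gates from K8-creERT2 control mice of the same background and time point were sorted as GFP-negative cells (3 arrays each). They served as the reference for how far the gates differ without the mutant. Mutant and control arrays thus differ in the GFP sort as well as in the mutant, and the 2 cannot be told apart. Each sorting pooled the glands of 2 to 3 estrus-synchronized mice of a genotype, there were 3 sortings, and RNA of 2000 sorted cells was amplified for each array. The labels give no age for the animals and do not tie replicate numbers to the sortings, so p-values measure the spread between these arrays. The question put to these arrays is which genes separate the Sca1-positive from the Sca1-negative cells once both carry the mutant.

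The luminal layer of the adult gland holds hormone-sensing cells, which carry the estrogen and progesterone receptors and pass ovarian hormone signals on to their neighbours as secreted factors, and hormone receptor-negative cells, which include progenitors and cells primed for milk production. Sca1, a surface protein of the Ly6 family, is used in sorting because it is carried by most hormone receptor-positive luminal cells, while progenitors and alveolar cells are enriched in the Sca1-negative gate. PIK3CA encodes the catalytic subunit of PI3K, the lipid kinase downstream of insulin, growth factor and cytokine receptors, and the H1047R change in its kinase domain raises its activity.

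Values are log2 probe set levels as the authors deposited them, so a difference of 1 is a doubling, and differences are given as Sca1-positive minus Sca1-negative. Array medians ran from 3.66 to 3.80 over the 20 arrays, and a level near or below them is low on this array. The 2 Sca1-positive arrays correlated with r = 0.983 across genes and the 3 Sca1-negative arrays with r = 0.982 to 0.984, whereas pairs from different gates gave 0.952 to 0.962. Precision is limited by the small number of arrays. Of the genes behind the sort and the driver, Krt8 had means of 11.96 ± 0.00 (SD, n = 2) and 11.90 ± 0.05 (SD, n = 3), Cd24a 10.88 ± 0.07 and 10.59 ± 0.09, and Ptprc, which encodes CD45, 3.36 ± 0.05 and 3.45 ± 0.08. None of these 3 genes was called different (limma, adjusted p = 0.999, 0.54 and 0.991). Pik3ca was at 6.61 and 5.86 against 6.77, 6.83 and 6.30 and was not called (adjusted p = 0.767), and it was not tested whether the probe set reads the transgene. Ly6a, the Sca1 gene itself, was not analysed here because no probe set carries it as its only symbol.

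Of 19937 genes tested, 813 differed between the mutant gates (4.08% of all genes, limma, Benjamini-Hochberg adjusted p under 0.05 and no fold limit), of which 469 (2.35%) were higher and 344 (1.73%) lower in Sca1-positive cells. Such genes are described below as having risen or fallen, which names a difference between sorted groups and not a change followed in time. Counts of called genes in the lists below are to be read beside the 4.08% of all genes. Each array averages many cells, so more cells of a type and more RNA per cell cannot be told apart. The median size of the called differences was 1.33 on the log2 scale, 576 called genes differed by 2-fold or more, and 183 by 4-fold or more, 113 of them higher and 70 lower. For each of the 813 both Sca1-positive arrays lay on one side of the Sca1-negative arrays, which held for 34.6% of all genes (16.2% higher, 18.4% lower). Without adjustment 2514 genes had a p under 0.05, and the median difference over all genes was -0.02. The spread was estimated from all 7 groups of the study together, since 2 arrays against 3 leave few values to estimate it from. An exact permutation test of 2 arrays against 3 cannot give a p below 0.1. The count rests on both Sca1-positive arrays: it was 460 without replicate 1 and 390 without replicate 3, where the single array left is assumed to vary like the other groups, and without Sca1-negative replicate 3 the number of genes that rose was 311.

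Among the genes that rose furthest were an antimicrobial peptide, tryptophan-handling enzymes, stratified-epithelium keratins and the progesterone receptor. Defb1, a beta-defensin secreted at epithelial surfaces, was at 6.64 and 8.59 in the Sca1-positive arrays and 3.63, 3.57 and 3.23 in the Sca1-negative arrays, a difference of 4.14 ± 0.83 on the log2 scale (SE, adjusted p = 0.00821). The groups were apart, but the 2 Sca1-positive arrays themselves differed by more than 1, as they did in 46 of the 813 called genes. Ido1, which degrades tryptophan, was at 9.54 and 9.71 in the Sca1-positive arrays and 6.72, 5.66 and 4.51 in the Sca1-negative arrays, a 15.9-fold difference (adjusted p = 0.000349). Both Sca1-positive arrays were high, and the Sca1-negative arrays spread over more than 2 log2 units below them. Tph1, the tryptophan hydroxylase that starts serotonin synthesis, was at 7.31 and 6.81 against 3.19, 3.54 and 3.45, a log2 difference of 3.67 (adjusted p = 1.78e-06). Plac8 was at 6.60 and 6.83 against 2.97, 2.84 and 2.85 (3.83, adjusted p = 2.52e-06). For Defb1, Tph1 and Plac8 all Sca1-negative arrays lay below the array medians, so no fold is given. Pwwp3b, Sprr2f (a small proline-rich protein of the cornified envelope), R3hdml and Gipc2 (a PDZ domain protein) rose by 3.61, 3.59, 3.38 and 3.33. Agtr1a (an angiotensin II receptor), the tetraspanin Tspan1 and Cav1, the coat protein of caveolae, rose by 3.28, 3.27 and 3.24. Cav1 was at 9.21 and 8.98 against 5.71, 5.93 and 5.94, with little spread inside either gate. Leaving out 1 array ended the calls of Defb1 (adjusted p = 0.171 without Sca1-positive replicate 3) and Agtr1a (adjusted p = 0.069 without Sca1-positive replicate 3).

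**Figure D1:**
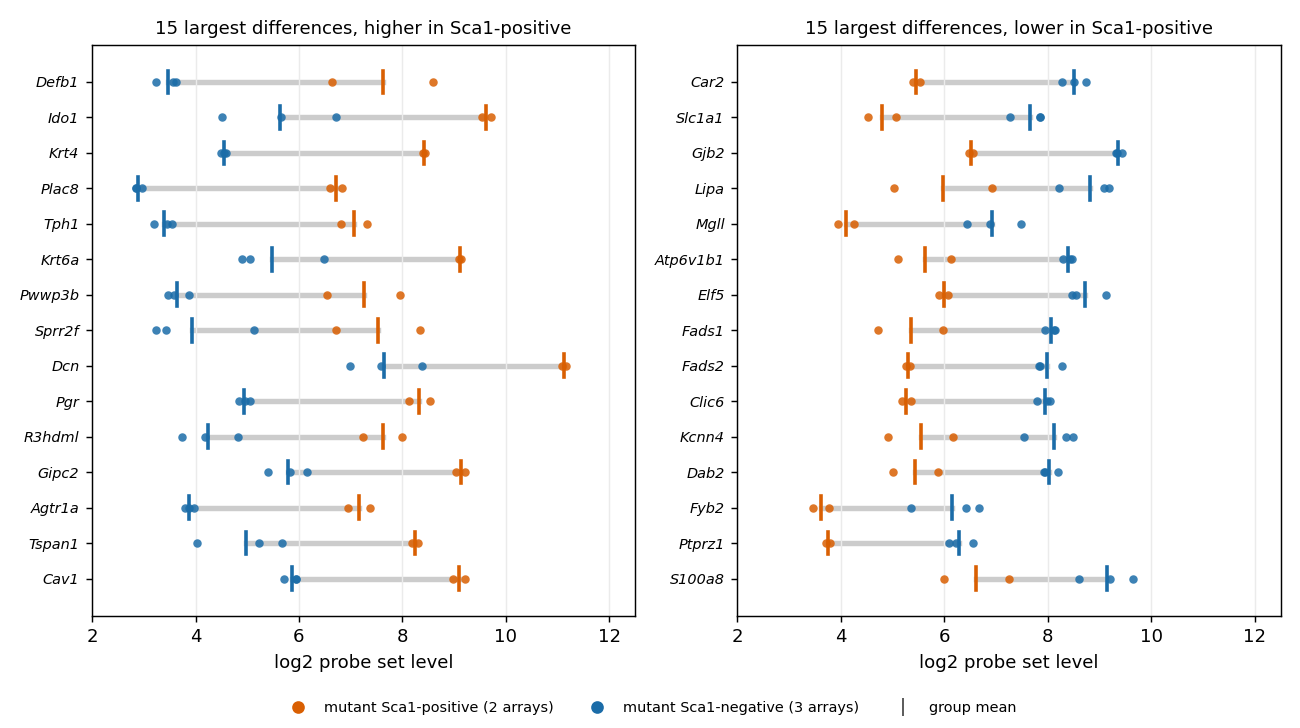
Log2 probe set level of the 15 genes with the largest positive (left) and the 15 with the largest negative (right) called difference, 1 point per array (2 Sca1-positive, 3 Sca1-negative), with vertical ticks at the group means and a grey bar between them. The groups are apart for each gene, and the 2 Sca1-positive points lie more than 1 log2 unit from each other for Defb1, Pwwp3b and Sprr2f on the left and for Lipa, Atp6v1b1, Fads1, Kcnn4 and S100a8 on the right.

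The 15 largest decreases included Car2, Slc1a1, Gjb2, lipid enzymes and Elf5. Car2, a carbonic anhydrase, was at 5.39 and 5.53 in the Sca1-positive arrays and 8.74, 8.50 and 8.28 in the Sca1-negative arrays, 8.3-fold lower (adjusted p = 0.000169). Slc1a1, a glutamate transporter, was at 4.51 and 5.07 against 7.27, 7.86 and 7.84 and Gjb2, a gap junction connexin, at 6.56 and 6.48 against 9.44, 9.32 and 9.34, with differences of -2.87 and -2.85. In each of these 3 genes the highest Sca1-positive array was more than 2 log2 units under the lowest Sca1-negative one. Lipa, the lysosomal acid lipase, and Mgll, which hydrolyses monoacylglycerol, fell by 2.84 and 2.82, and Clic6, an intracellular chloride channel protein, fell by 2.68 (5.35 and 5.18 against 8.05, 7.79 and 7.98). Dab2, an endocytic adaptor, fell by 2.58 on the probe set used, while a second, dimmer Dab2 probe set gave 0.06. Fyb2 (-2.54), the receptor phosphatase gene Ptprz1 (-2.54) and S100a8 (-2.54), a calcium-binding alarmin, completed the 15 largest decreases with the genes described by group below. Leaving out 1 array ended the calls of Gjb2 (adjusted p = 0.0882 to 0.111 without Sca1-positive replicate 1 or 3) and Lipa (adjusted p = 0.0946 without Sca1-positive replicate 1). Lost as well were the calls of Mgll (adjusted p = 0.0644 without Sca1-positive replicate 3), Ptprz1 (adjusted p = 0.0522 to 0.0984 without Sca1-positive replicate 1 or 3 or Sca1-negative replicate 3) and S100a8 (adjusted p = 0.0684 to 0.325 without Sca1-positive replicate 1 or Sca1-negative replicate 1 or 3).

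The estrogen and progesterone receptor genes and several transcription factors that work with them were higher in the Sca1-positive cells. Of 11 measured members of that list 6 rose and 0 fell, with a median difference of 1.50 beside -0.02 over all genes. Pgr, the progesterone receptor and itself an estrogen receptor target, was at 8.53 and 8.13 in the Sca1-positive arrays and 4.95, 5.05 and 4.84 in the Sca1-negative arrays, a difference of 3.38 ± 0.34 (SE) or 10.4-fold (adjusted p = 3.17e-05). Esr1, the estrogen receptor alpha gene, was at 6.63 and 6.48 in the Sca1-positive arrays and 4.53, 4.43 and 4.25 in the Sca1-negative arrays, 4.45-fold higher (adjusted p = 0.00045). For both receptors the arrays of each gate lay close to each other and far from the other gate. Foxa1, the pioneer factor that opens chromatin for the estrogen receptor, was at 8.42 and 8.76 against 5.68, 5.30 and 5.58 (8.38-fold, adjusted p = 0.00045). Cited1, a co-activator of the estrogen receptor, was at 11.02 and 10.86 against 9.14, 8.42 and 8.67 (4.58-fold, adjusted p = 0.00568), so that it was well above the array medians in both gates. Stc2, a secreted glycoprotein induced by estrogen, was at 9.16 and 9.56 against 6.53, 6.36 and 6.61 (7.24-fold, adjusted p = 2.33e-05). Tbx3, a T-box repressor of the hormone-sensing lineage, rose by 1.50 ± 0.33 (adjusted p = 0.0136). The luminal master regulator Gata3 was high in both gates, at 8.45 and 8.79 against 8.75, 8.11 and 8.54, and was not called (difference 0.16, 95% confidence interval -0.58 to 0.89, adjusted p = 0.996). The estrogen target Greb1 (0.51), the co-activator Ncoa3 (0.33) and the insulin receptor Insr (-0.26) were not called either, and Prlr was not analysed here. The count was 4 without Sca1-positive replicate 1 and 5 without Sca1-positive replicate 3 or Sca1-negative replicate 1 or 3. The calls lost were those of Tbx3 (adjusted p = 0.051 to 0.125 without Sca1-positive replicate 1 or 3 or Sca1-negative replicate 1 or 3) and Cited1 (adjusted p = 0.0607 without Sca1-positive replicate 1).

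Surface and secreted markers of hormone-sensing cells went the same way, but the best-known paracrine mediators did not pass the test. Of 10 measured members 5 rose and 0 fell (median 1.79). Prom1, the surface marker prominin-1 used to isolate these cells, was at 7.44 and 6.79 in the Sca1-positive arrays and 4.70, 4.87 and 3.96 in the Sca1-negative arrays (6.09-fold, adjusted p = 0.00014). The fibrinogen chain genes Fgb and Fgg rose by 2.67 ± 0.44 and 3.21 ± 0.64, with Fgg at 8.84 and 8.66 against 7.45, 4.83 and 4.34. Replicate 1 was the highest Sca1-negative array for both chains, and for Fgg it lay more than 2 log2 units above the other two. Wnt5a, a Wnt ligand made by hormone-sensing cells, rose from a low level, at 5.27 and 5.39 against 3.51, 3.88 and 3.72 (adjusted p = 0.00331). Wnt4, the ligand through which progesterone acts on basal cells, was at 5.25 and 5.57 against 4.95, 5.14 and 4.96 and was not called (adjusted p = 0.737), while a second Wnt4 probe set of lower level gave 0.99. Tnfsf11, which encodes RANKL, was near the array medians in all 5 arrays (4.03 and 3.95 against 4.12, 3.98 and 4.04, adjusted p = 0.991). The chemokine Cxcl15 was higher by 1.94 without passing the test (adjusted p = 0.15), and Areg was not analysed here. Leaving out an array ended the call of Fgg (adjusted p = 0.0644 to 0.0759 without Sca1-positive replicate 1 or 3).

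**Figure D2:**
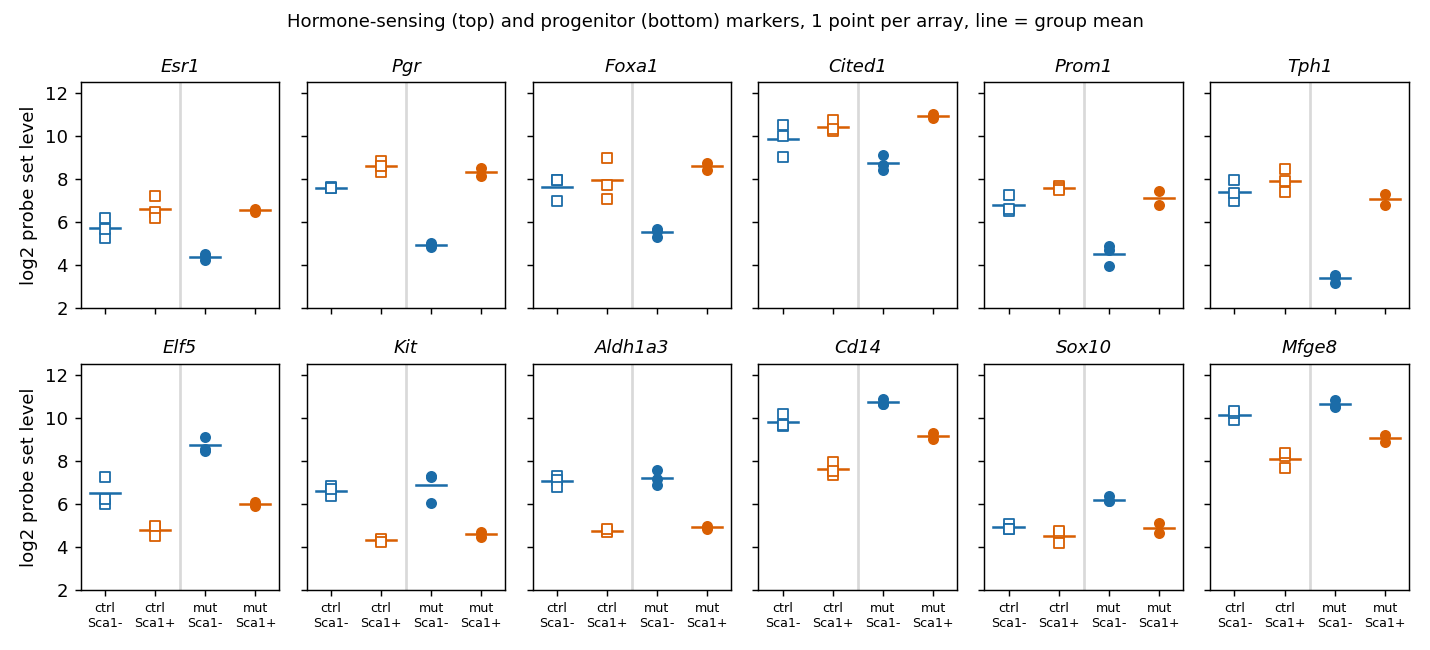
Log2 probe set level of 6 hormone-sensing genes (top) and 6 progenitor genes (bottom), 1 point per array and a line at each group mean, in control (open squares, left of the divider) and mutant (filled circles, right) cells of both gates. In the mutants the gates are apart for all 12 genes. In the controls the 2 gates overlap for Esr1, Foxa1, Cited1 and Tph1 and are apart for Pgr, Prom1 and the 6 progenitor genes shown. Of the called progenitor genes not shown, Itgb3 and Hey1 overlap in the controls and Ltf, Tspan8 and Cp are apart. Of the called hormone-sensing genes not shown, Tbx3, Wnt5a, Fgb and Fgg overlap there and Stc2 is apart.

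Most markers of luminal progenitors and alveolar precursors were lower in the Sca1-positive cells. Of 18 measured members 0 rose and 11 fell (median -1.30). In 16 of the 18 both Sca1-positive arrays were below all Sca1-negative arrays, beside 18.4% of all genes. Elf5, the ETS-family regulator of alveolar fate, was at 6.07 and 5.90 in the Sca1-positive arrays and 9.12, 8.47 and 8.55 in the Sca1-negative arrays, 6.61-fold lower (adjusted p = 0.00326). The receptor tyrosine kinase gene Kit was at 4.70 and 4.47 against 7.24, 6.04 and 7.28 (4.83-fold lower, adjusted p = 0.00015), with Sca1-negative replicate 2 the lowest of its group. Aldh1a3, the retinaldehyde dehydrogenase that marks progenitors, was at 4.85 and 4.95 against 7.15, 7.57 and 6.87 (4.93-fold lower, adjusted p = 1.43e-05). The Kit and Aldh1a3 levels in the Sca1-positive arrays stood about 1 log2 unit above the array medians. Sox10, a progenitor and neural crest factor, fell by 1.31 (5.10 and 4.66 against 6.37, 6.11 and 6.11), and Mfge8, a milk fat globule protein, by 1.60 from a high level (8.89 and 9.19 against 10.56, 10.50 and 10.84). The tetraspanin Tspan8, ceruloplasmin (Cp), lactoferrin (Ltf) and the endotoxin co-receptor Cd14 fell by 2.30, 2.02, 1.71 and 1.56. Integrin beta 3 (Itgb3) and the Notch target Hey1 fell by 1.29 and 1.11. Of the members without a call, Trf (-1.27), Lif (-1.10), the ETS factor Ehf (-0.87) and Lcn2 (-0.75, adjusted p = 0.0558) had both Sca1-positive arrays below all Sca1-negative arrays. The count of members that fell was 5 without Sca1-positive replicate 1 and 7 without replicate 3. The calls lost were those of Tspan8 (adjusted p = 0.0562 to 0.0979 without Sca1-positive replicate 1 or 3) and Cp (adjusted p = 0.147 without Sca1-positive replicate 1). This applied also to Ltf (adjusted p = 0.106 without Sca1-positive replicate 1) and Cd14 (adjusted p = 0.073 to 0.248 without Sca1-positive replicate 1 or 3 or Sca1-negative replicate 1, 2 or 3). The same held for Itgb3 (adjusted p = 0.059 to 0.0688 without Sca1-positive replicate 1 or 3) and Hey1 (adjusted p = 0.0581 to 0.315 without Sca1-positive replicate 1 or 3 or Sca1-negative replicate 1 or 2).

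The 250 bases before the annotated start of 4 of these genes are shown because these genes stand for both sides of the contrast: Pgr and Foxa1 on the hormone-sensing side, Elf5 and Kit on the progenitor side. The sequences are RefSeq's on build GRCm38.p6, read 5′ to 3′ on the gene's strand. Pgr lies on the plus strand (window chr9:8899583-8899832), Foxa1 on the minus strand (chr12:57546112-57546361), Elf5 on the plus strand (chr2:103411848-103412097) and Kit on the plus strand (chr5:75574737-75574986), and for Elf5 and Kit the first of 2 listed starts was used. Capitals mark a match, on either strand, to the forkhead core TGTTTAC, the ETS core AGGAAG or the estrogen receptor half-site AGGTCA.

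Pgr: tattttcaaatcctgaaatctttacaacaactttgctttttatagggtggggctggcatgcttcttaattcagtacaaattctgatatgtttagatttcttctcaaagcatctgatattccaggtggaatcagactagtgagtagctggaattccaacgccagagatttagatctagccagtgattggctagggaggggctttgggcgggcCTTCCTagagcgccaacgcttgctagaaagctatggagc
Foxa1: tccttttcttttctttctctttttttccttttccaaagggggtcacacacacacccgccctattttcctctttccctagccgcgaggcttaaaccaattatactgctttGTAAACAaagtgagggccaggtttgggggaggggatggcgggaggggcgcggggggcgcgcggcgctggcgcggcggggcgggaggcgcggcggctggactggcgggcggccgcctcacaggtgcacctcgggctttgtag
Elf5: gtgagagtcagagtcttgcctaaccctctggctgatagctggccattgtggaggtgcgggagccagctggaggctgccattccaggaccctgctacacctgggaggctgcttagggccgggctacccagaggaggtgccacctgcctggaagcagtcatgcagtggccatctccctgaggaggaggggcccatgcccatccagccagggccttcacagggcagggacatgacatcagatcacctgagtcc
Kit: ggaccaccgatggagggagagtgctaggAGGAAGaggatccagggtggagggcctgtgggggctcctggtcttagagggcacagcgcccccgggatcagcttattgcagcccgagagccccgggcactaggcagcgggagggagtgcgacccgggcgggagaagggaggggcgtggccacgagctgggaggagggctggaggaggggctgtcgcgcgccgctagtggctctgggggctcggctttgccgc

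The Pgr window holds an ETS match 39 bases before the start and the Kit window one 222 bases before it. The Foxa1 window holds a forkhead match 141 bases before the start, and none of the 3 letter strings occurs in the Elf5 window. Over the 15613 tested genes with a window, the ETS core occurred in 28.2%, beside 21.9% of the windows of the 365 genes that rose and 33.1% of those of the 266 that fell. The forkhead core occurred in 2.72% of all windows, 4.11% for genes that rose and 3.76% for genes that fell. The half-site occurred in 12.2% of all windows, 11.8% for genes that rose and 8.27% for genes that fell. These are matches of letters, given as a description.

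Few milk genes passed the test. Of 15 measured members of the milk protein and milk fat list 0 rose and 2 fell (median -0.47). These were Btn1a1 (butyrophilin) and Xdh (xanthine dehydrogenase), partners in the secretion of milk fat globules, which fell by 2.39 ± 0.34 and 1.98 ± 0.33 (adjusted p = 0.000598 and 0.00215). Btn1a1 was at 4.06 and 5.34 against 7.47, 6.78 and 7.01 and Xdh at 4.46 and 4.77 against 6.76, 6.49 and 6.52, so Sca1-positive replicate 3 was the higher of its pair for both. The caseins varied more: Csn1s2a was at 8.20 and 10.28 in the Sca1-positive arrays and 11.32, 10.24 and 11.09 in the Sca1-negative arrays, where Sca1-positive replicate 3 lay within the Sca1-negative range (adjusted p = 0.809). Wap, the whey acidic protein gene, was at 8.35 and 8.17 against 9.97, 8.97 and 9.29 (-1.15, adjusted p = 0.604), Csn1s1 differed by -1.0 (adjusted p = 0.822), and the lipid droplet coat gene Plin2 by -1.86 (adjusted p = 0.166).

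Acute-phase and antimicrobial genes split between the gates. Of 16 measured members 2 rose and 4 fell (median -0.92). Wfdc2, a secreted whey-acidic-type protein, was at 10.98 and 11.23 in the Sca1-positive arrays and 8.74, 7.88 and 8.43 in the Sca1-negative arrays (6.76-fold higher, adjusted p = 0.0243). Reg3g, an antimicrobial lectin, rose by 2.27 ± 0.41 from Sca1-negative levels under the array medians. Saa3, an inflammation-induced serum amyloid gene, fell by 2.21 ± 0.54 (3.39 and 4.25 against 5.10, 6.15 and 6.85), and S100a8 and Ltf, named above, were the other decreases with Saa2. Saa2 fell by 1.72 ± 0.43 (adjusted p = 0.0336) and Saa1 differed by -1.44 (adjusted p = 0.194), but these genes are near-identical copies whose probe sets may share signal, so their values are uncertain. Lbp and Chil1 were lower by 1.82 and 1.34 without passing the test (adjusted p = 0.195 and 0.474). Without Sca1-positive replicate 1 no member of the list kept a call, and without Sca1-positive replicate 3 there were 1 that rose and 2 that fell. Without Sca1-negative replicate 3 there were 1 and 1, and without Sca1-negative replicate 1 there were 2 and 2. Leaving out an array ended the calls of Wfdc2 (adjusted p = 0.063 to 0.192 without Sca1-positive replicate 1 or 3 or Sca1-negative replicate 2 or 3) and Reg3g (adjusted p = 0.0743 without Sca1-positive replicate 1). Lost as well were the calls of Saa2 (adjusted p = 0.0555 to 0.291 without Sca1-positive replicate 1 or 3 or Sca1-negative replicate 1, 2 or 3) and Saa3 (adjusted p = 0.0701 to 0.307 without Sca1-positive replicate 1 or 3 or Sca1-negative replicate 2 or 3).

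Krt4, Krt6a and 3 other keratins of stratified epithelium were higher in Sca1-positive cells, while the main luminal pair, Krt8 and Krt18, was not called. Of 18 measured keratin genes 5 rose and 0 fell (median 0.39). Krt4, typical of mucosal linings, was at 8.40 and 8.44 in the Sca1-positive arrays and 4.59, 4.55 and 4.49 in the Sca1-negative arrays, 14.7-fold higher (adjusted p = 1.91e-07), with the arrays of each gate nearly level. Krt6a and Krt16, induced in activated epidermis, were at 9.13 and 9.09 against 6.47, 5.05 and 4.91 and 7.36 and 6.85 against 5.30, 5.47 and 4.82 (adjusted p = 0.00207 and 0.0134). Sca1-negative replicate 1 was the highest of its group for Krt6a and still lay more than 2 log2 units under the Sca1-positive arrays. Krt5, a basal cell keratin, rose by 1.28 ± 0.28 (6.76 and 7.18 against 5.72, 5.99 and 5.37), and Krt10, a keratin of differentiating epidermis, rose by 1.16 ± 0.22. Krt18, the partner of Krt8, differed by 0.05, and Krt7 and Krt19 by 0.81 and 0.51 (adjusted p = 0.385 and 0.823). Krt15 and Krt14, basal keratins too, differed in opposite directions without a call (1.03 and -0.92, adjusted p = 0.0844 and 0.546). The count was 3 without Sca1-negative replicate 3 and 3 without either Sca1-positive replicate. The calls lost were those of Krt5 (adjusted p = 0.0667 to 0.208 without Sca1-positive replicate 3 or Sca1-negative replicate 3), Krt10 (adjusted p = 0.122 without Sca1-positive replicate 1) and Krt16 (adjusted p = 0.0531 to 0.162 without Sca1-positive replicate 1 or 3 or Sca1-negative replicate 3).

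Markers of basal myoepithelial cells did not move with Krt5 as a list. Of 20 measured members 1 rose (Krt5) and 1 fell, the intermediate filament gene Vim, by 1.53 (4.73 and 4.84 against 6.26, 6.30 and 6.40, adjusted p = 0.00113). The mean log2 level of the 20 genes was 5.08 and 5.32 in the Sca1-positive arrays and 5.19, 5.33 and 5.25 in the Sca1-negative arrays. The contractile genes Acta2 (-0.44, adjusted p = 0.813) and Cnn1 (-0.55, adjusted p = 0.753) overlapped between the gates. Of 15 measured general luminal genes 0 rose and 1 fell (6.67%, beside 4.08% of all genes, median 0.06). Tfap2c, an AP-2 transcription factor of luminal cells, fell, at 5.45 and 5.74 against 6.87, 6.54 and 6.82 (adjusted p = 0.0179). The mucin gene Muc1 was at 6.75 and 6.0 against 8.29, 9.39 and 8.18 and just missed the threshold (difference -2.24, adjusted p = 0.0614), and Cldn4 and the ETS factor Elf3 differed by 0.74 and 0.56 without a call. Leaving out an array ended the call of Tfap2c (adjusted p = 0.0631 to 0.192 without Sca1-positive replicate 1 or 3 or Sca1-negative replicate 1 or 3).

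Relatives of the Sca1 gene were among the surface genes that rose. Of 13 measured genes of the Ly6 family 3 rose and 0 fell (median 0.07). Ly6d was at 10.39 and 10.68 in the Sca1-positive arrays and 7.52, 7.30 and 8.13 in the Sca1-negative arrays (7.39-fold, adjusted p = 0.0278). Ly6g6c was at 6.25 and 6.58 against 3.96, 3.89 and 4.05 (5.45-fold, adjusted p = 0.000126) and Ly6k at 6.78 and 7.16 against 4.98, 4.74 and 5.34 (3.87-fold, adjusted p = 0.0115). The gates were apart for each, and Ly6g6c was near the array medians in the Sca1-negative cells. Ly6e was high in both gates, at 11.97 and 12.07 against 11.92, 11.87 and 12.01 and was not called, and Ly6m, Lynx1 and Ly6i differed by 0.91, 0.32 and -0.19 without a call. The count was 1 without Sca1-positive replicate 3. Over all left-out arrays, calls ended for Ly6d (adjusted p = 0.0768 to 0.211 without Sca1-positive replicate 1 or 3 or Sca1-negative replicate 1 or 2) and Ly6k (adjusted p = 0.0519 to 0.146 without Sca1-positive replicate 1 or 3). Ly6c1 and Ly6c2 were not analysed here.

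**Figure D3:**
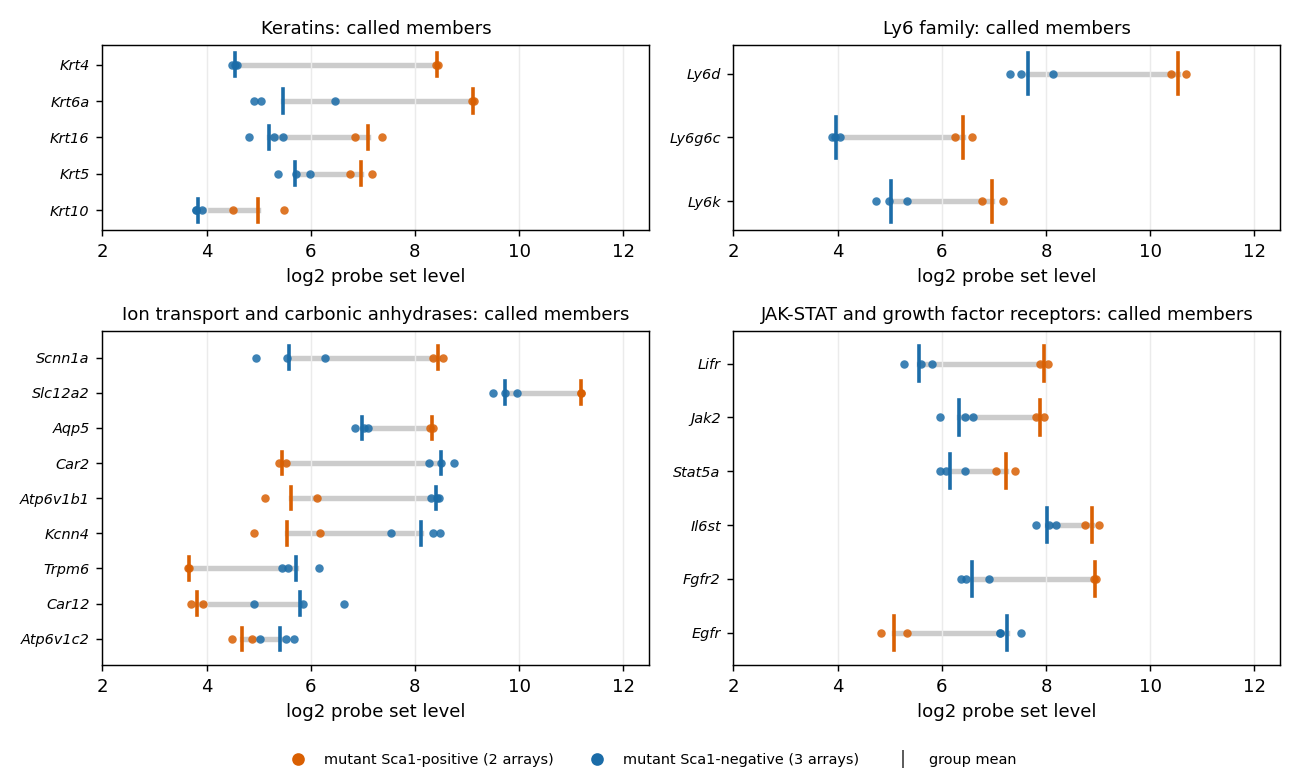
Log2 probe set level of the called keratins, Ly6 family genes, ion transport genes and JAK-STAT and growth factor receptor genes, 1 point per array (2 Sca1-positive, 3 Sca1-negative), with vertical ticks at the group means. Keratins and Ly6 genes are higher in the Sca1-positive arrays, while the ion transport genes divide into 3 higher and 6 lower.

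Ion transport genes went both ways. Of 25 measured members 3 rose and 6 fell (median -0.11). Those that rose carry sodium, chloride and water. Scnn1a, the alpha subunit of the epithelial sodium channel, was at 8.54 and 8.35 in the Sca1-positive arrays and 6.27, 5.54 and 4.95 in the Sca1-negative arrays (7.25-fold, adjusted p = 7.54e-05). Slc12a2, the sodium-potassium-chloride cotransporter, was at 11.19 and 11.18 against 9.96, 9.74 and 9.50, and the water channel Aqp5 at 8.35 and 8.29 against 6.85, 7.09 and 7.03. In all 3 the Sca1-positive arrays lay close to each other and above the Sca1-negative arrays. Those that fell included Car2, described above, and Atp6v1b1, a proton pump subunit of acid-secreting cells, at 5.11 and 6.13 against 8.46, 8.30 and 8.43 (6.85-fold lower, adjusted p = 0.000772). The calcium-activated potassium channel Kcnn4 fell by 2.58 ± 0.40, the magnesium channel Trpm6 by 2.07 ± 0.21, a second carbonic anhydrase, Car12, by 1.99 ± 0.50 and another proton pump subunit, Atp6v1c2, by 0.73 ± 0.19 on the log2 scale. Trpm6 was at 3.67 and 3.64 against 5.57, 6.15 and 5.44, so its Sca1-positive level was that of the array medians. Slc12a2 lost its call without Sca1-positive replicate 1 and also without replicate 3. Car12 and Atp6v1c2 lost theirs without either Sca1-positive replicate and without Sca1-negative replicate 1 or 3. In the latter fits the limma adjusted p was 0.0843 and 0.136 for Car12 and 0.174 and 0.154 for Atp6v1c2.

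Lifr, Il6st, Jak2 and Stat5a, of cytokine signalling, were higher in Sca1-positive cells. Of 17 measured members of the prolactin and JAK-STAT list 4 rose and 0 fell (median 0.49). Lifr, the receptor of leukaemia inhibitory factor, was at 7.88 and 8.04 in the Sca1-positive arrays and 5.81, 5.28 and 5.59 in the Sca1-negative arrays (5.28-fold, adjusted p = 6.39e-07). Il6st, its signalling partner, was at 8.75 and 9.02 against 8.07, 7.81 and 8.20 (adjusted p = 0.0133). The kinase Jak2 was at 7.81 and 7.95 against 6.59, 6.45 and 5.96 and the transcription factor Stat5a, which drives milk genes downstream of prolactin, at 7.05 and 7.40 against 6.44, 5.97 and 6.08 (adjusted p = 0.0141 and 0.0362). Il13ra1 (1.27), Stat5b (0.87) and the feedback inhibitors Socs3 (1.12) and Cish (0.56) were higher without passing the test. The count was 2 without Sca1-positive replicate 1, Sca1-negative replicate 2 or Sca1-negative replicate 3, and 1 without Sca1-positive replicate 3. The calls lost were those of Jak2 (adjusted p = 0.0662 to 0.137 without Sca1-positive replicate 1 or 3 or Sca1-negative replicate 3), Stat5a (adjusted p = 0.091 to 0.347 without Sca1-positive replicate 1 or 3 or Sca1-negative replicate 2 or 3) and Il6st (adjusted p = 0.0598 to 0.194 without Sca1-positive replicate 3 or Sca1-negative replicate 2).

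Growth factor receptors went in opposite directions. Of 19 measured ERBB, FGF and TNF family ligands and receptors 2 rose and 1 fell (median -0.05). Fgfr2, a fibroblast growth factor receptor needed for ductal growth, was at 8.96 and 8.92 in the Sca1-positive arrays and 6.47, 6.90 and 6.37 in the Sca1-negative arrays (5.13-fold higher, adjusted p = 1.04e-06). The epidermal growth factor receptor Egfr was at 4.84 and 5.34 against 7.12, 7.11 and 7.52 (4.47-fold lower, adjusted p = 0.00015). Neither receptor's groups overlapped. Epgn, an Egfr ligand, rose by 1.94 ± 0.33 (7.23 and 6.57 against 5.59, 4.52 and 4.76). Nrg1, a ligand of the ERBB family, was lower by 1.38 without a call (adjusted p = 0.197), and Erbb2 and Erbb3 differed by 0.65 and 0.85 (adjusted p = 0.333 and 0.567). Of 30 measured Wnt pathway genes 2 rose and 1 fell (median -0.11): Wnt5a, given above, and Wnt7b, by 0.88 ± 0.22, rose. The ligand Wnt5b fell by 1.87 ± 0.30 (5.10 and 4.74 against 6.73, 6.45 and 7.19, adjusted p = 0.00164). The secreted inhibitors Sfrp2 (-1.89) and Sfrp1 (-0.76) and the receptors Lgr6 (-1.01) and Fzd7 (-0.78) were lower in both Sca1-positive arrays without a call. Hey1 was the single call among 19 Notch pathway genes (5.26%, median -0.11), with Jag1 at 0.97 and Notch1 at 0.52. Elf5 was the single call among 20 ETS factors (5%, median 0.01). Both shares were near the 4.08% called over all genes. Without 1 array, calls were lost for Epgn (adjusted p = 0.0515 without Sca1-positive replicate 1) and Wnt7b (adjusted p = 0.0674 to 0.251 without Sca1-positive replicate 1 or 3 or Sca1-negative replicate 1, 2 or 3), beside Hey1 above.

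In the pathway that the oncogene acts in, 3 genes separated the gates. Of 28 measured insulin, IGF and PI3K pathway genes 1 rose and 2 fell (10.7%, beside 4.08% of all genes, median 0.02). Pik3r3, a regulatory subunit of PI3K, was at 5.28 and 5.45 in the Sca1-positive arrays and 4.37, 4.21 and 4.41 in the Sca1-negative arrays (difference 1.03 ± 0.24, adjusted p = 0.019). Igfbp5, a secreted binding protein of insulin-like growth factors, was at 8.82 and 8.91 against 10.46, 10.56 and 10.80 (3.34-fold lower, adjusted p = 0.00178), and the AKT phosphatase gene Phlpp2 fell by 0.57 from a low level. The related Phlpp1 (-0.82), Igfbp7 (-0.99), the insulin receptor substrate Irs2 (-0.65) and Igf2r (0.66) were not called. Among 18 FOXO-linked genes 0 rose and 1 fell (5.56%, near the 4.08% of all genes, median -0.11). Cited2, a transcriptional co-regulator, fell by 1.31 (7.77 and 8.11 against 9.29, 9.06 and 9.39). The FOXO target Bcl2l11, which encodes the pro-apoptotic protein BIM, was lower by 1.21 just short of the threshold (adjusted p = 0.0601). Among 15 genes of ERK pathway feedback 0 rose and 2 fell (median -0.26): the ERK phosphatase Dusp5, at 6.74 and 6.98 against 8.48, 8.50 and 8.55, and Phlda1, at 9.25 and 9.08 against 10.38, 10.20 and 10.14 (adjusted p = 0.00331 and 0.00118). Other feedback genes differed either way without a call, with Spry2 at -1.77, Dusp4 at 1.32 and Spred3 at 1.18 (adjusted p = 0.355, 0.145 and 0.0524). Leaving out an array ended the calls of Pik3r3 (adjusted p = 0.0692 to 0.191 without Sca1-positive replicate 1 or 3 or Sca1-negative replicate 2) and Phlpp2 (adjusted p = 0.0757 to 0.351 without Sca1-positive replicate 3 or Sca1-negative replicate 1 or 3). This applied also to Cited2 (adjusted p = 0.0904 without Sca1-positive replicate 1) and Dusp5 (adjusted p = 0.0518 without Sca1-positive replicate 1).

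Among metabolic genes, Fads2, Fads1 and Pfkp fell and Fdft1 rose. Of 18 measured fatty acid synthesis genes 0 rose and 2 fell (median -0.17). These were Fads2 and Fads1, desaturases of polyunsaturated fatty acids that neighbour each other in the genome. Fads2 was at 5.26 and 5.34 in the Sca1-positive arrays and 7.85, 7.84 and 8.28 in the Sca1-negative arrays and Fads1 at 4.73 and 5.98 against 7.94, 8.14 and 8.13 (adjusted p = 9.77e-05 and 0.00346). Sca1-positive replicate 3 was the higher of its pair for Fads1, and the groups were apart for both. The stearoyl desaturases Scd1 and Scd2 differed by -1.08 and 1.15 and the triglyceride enzyme Dgat2 by 1.66 without a call (adjusted p = 0.818, 0.32 and 0.0699). Of 17 cholesterol synthesis genes 2 rose and 0 fell (median 0.28): squalene synthase, Fdft1, at 7.26 and 7.46 against 6.15, 6.26 and 5.97 (adjusted p = 0.00152), whose second probe set gave 1.93, and Hmgcs1 by 1.14 ± 0.30 (adjusted p = 0.043). Of 16 glucose uptake and glycolysis genes 0 rose and 2 fell (median 0.09). The platelet-type phosphofructokinase Pfkp was at 5.45 and 5.91 against 7.35, 7.40 and 7.43 and the glucose transporter Slc2a1 at 9.18 and 9.16 against 10.23, 10.25 and 10.50 (adjusted p = 0.000323 and 0.029). The glycolytic enzyme Tpi1 was higher by 1.03 without a call (adjusted p = 0.0804). Of 17 ATF4 and serine synthesis genes 0 rose and 3 fell (median -0.42): the serine synthesis enzyme Psat1 (-1.76), the stress sensor Sesn2 (-1.35) and the amino acid transporter chain Slc3a2 (-1.07), with Chac1 (-1.34) and Slc7a5 (-1.18) lower but not called. Fads1 lost its call without Sca1-positive replicate 1. Hmgcs1 lost its call without either Sca1-positive replicate and without Sca1-negative replicate 1 or 2 (limma, adjusted p = 0.131 and 0.152 for the latter). The same held for Slc2a1 (adjusted p = 0.0578 to 0.188 without Sca1-positive replicate 1 or 3 or Sca1-negative replicate 1, 2 or 3) and Psat1 (adjusted p = 0.0917 without Sca1-positive replicate 1). Lost as well were the calls of Sesn2 (adjusted p = 0.0807 without Sca1-positive replicate 3) and Slc3a2 (adjusted p = 0.0538 to 0.39 without Sca1-positive replicate 1 or 3 or Sca1-negative replicate 1, 2 or 3). The ATF4 count was 1 without either Sca1-positive replicate.

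Some immediate early genes, Fos and Klf4 among them, and some antigen processing genes were higher in Sca1-positive cells. Of 19 measured immediate early and dissociation stress genes 6 rose and 0 fell (median 0.40). Fos was at 10.54 and 10.85 in the Sca1-positive arrays and 8.98, 9.07 and 9.68 in the Sca1-negative arrays (2.74-fold, adjusted p = 0.00126), and the zinc finger gene Klf4 at 8.81 and 8.80 against 7.46, 7.29 and 7.92 (2.37-fold, adjusted p = 0.0043). Btg2, Klf2, Atf3 and Junb rose by 0.98, 0.84, 0.69 and 0.66, and Fosb, Egr1 and Ier2 were higher by 0.78, 0.68 and 0.67 without a call. Genes of this list respond to tissue dissociation as well as to growth signals, and the part of dissociation in the result was not tested. Of 24 interferon and antigen processing genes 5 rose and 0 fell (median 0.20). The peptide transporter genes Tap1 and Tap2 were at 5.08 and 5.14 against 3.81, 3.72 and 3.88 and at 6.65 and 6.86 against 5.76, 5.40 and 5.67. The immunoproteasome subunit Psmb8 was at 8.74 and 8.63 against 7.05, 7.54 and 6.96, with the groups apart as for both transporters. The antiviral enzyme Rsad2 was at 5.46 and 5.66 against 4.21, 3.69 and 3.77 and tetherin, Bst2, at 7.45 and 7.61 against 6.24, 6.20 and 5.75. Psmb9, the neighbour of Tap1 in the genome, was higher by 1.63 just short of the threshold (adjusted p = 0.0569), and Ifit1 was below the array medians in both gates, with means of 3.24 and 3.12. Stat2 differed by 1.36 without a call, with Sca1-positive replicate 3 alone high (4.21 and 6.21 against 3.90, 3.79 and 3.87), and the 2 probe sets of Irf1 gave 1.22 and -0.31. Without Sca1-positive replicate 3 the counts were 2 for the immediate early list and 1 for the interferon list, and the latter was 3 without Sca1-negative replicate 3. The calls lost were those of Btg2 (adjusted p = 0.0762 to 0.15 without Sca1-positive replicate 1 or 3 or Sca1-negative replicate 1 or 3) and Klf2 (adjusted p = 0.0679 to 0.349 without Sca1-positive replicate 3 or Sca1-negative replicate 2). This applied also to Atf3 (adjusted p = 0.0506 to 0.0652 without Sca1-positive replicate 1 or 3) and Junb (adjusted p = 0.0632 to 0.34 without Sca1-positive replicate 3 or Sca1-negative replicate 2). The same held for Tap1 (adjusted p = 0.0644 without Sca1-positive replicate 3) and Tap2 (adjusted p = 0.0667 to 0.245 without Sca1-positive replicate 1 or 3 or Sca1-negative replicate 2 or 3). Lost as well were the calls of Psmb8 (adjusted p = 0.0905 to 0.189 without Sca1-positive replicate 1 or 3 or Sca1-negative replicate 1 or 3) and Bst2 (adjusted p = 0.0567 without Sca1-positive replicate 3).

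Adhesion, matrix and cytokine genes gave single strong members rather than shifted lists. Of 28 adhesion and junction genes 1 rose and 3 fell (median 0.03). The tight junction gene Cldn8 rose by 1.49 ± 0.26, and Gjb2, Itgb3 and the hyaluronan receptor Cd44 fell. Cd44 was at 8.37 and 8.56 in the Sca1-positive arrays and 9.71, 9.92 and 10.01 in the Sca1-negative arrays (2.68-fold lower, adjusted p = 0.000821). Cldn1 was lower by 2.02 without a call (adjusted p = 0.502), and Itga5 higher by 1.57 (adjusted p = 0.082). Of 27 matrix and protease genes 2 rose and 3 fell (median 0.01). Decorin, Dcn, a small proteoglycan that binds collagen, was at 11.17 and 11.08 in the Sca1-positive arrays and 7.59, 6.99 and 8.38 in the Sca1-negative arrays (11.1-fold higher, adjusted p = 0.000617). The membrane metalloprotease Mmp14 was at 8.05 and 7.55 against 6.43, 6.69 and 6.24. Thrombospondin-1, Thbs1, was at 7.97 and 8.09 against 9.74, 10.08 and 9.89 (3.66-fold lower, adjusted p = 0.000205), and Klk10 and Sparcl1 fell by 2.36 and 2.25. Of 26 chemokines and cytokines 2 rose and 1 fell (median 0.02). The alarmin Il33 was at 8.19 and 7.55 against 4.93, 4.66 and 4.79 (8.45-fold higher, adjusted p = 9.12e-05). The mucosal chemokine Cxcl17 rose too, at 6.73 and 8.45 against 4.97, 4.98 and 4.59, and the cytokine Il24 fell by 2.09 (3.63 and 3.38 against 5.90, 4.61 and 6.29). Il33 was apart by more than 2 log2 units, while the Sca1-positive arrays of Cxcl17 lay more than 1 apart. The macrophage growth factor Csf1 (-1.05) and the membrane chemokine Cx3cl1 (-1.01, adjusted p = 0.0509) were lower without a call. Without 1 array, calls were lost for Sparcl1 (adjusted p = 0.0845 without Sca1-positive replicate 3) and Mmp14 (adjusted p = 0.133 without Sca1-positive replicate 1). This applied also to Klk10 (adjusted p = 0.0816 to 0.421 without Sca1-positive replicate 1 or Sca1-negative replicate 1 or 3) and Il24 (adjusted p = 0.0821 without Sca1-positive replicate 3). The number of adhesion genes that fell was 1 without either Sca1-positive replicate.

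**Figure D4:**
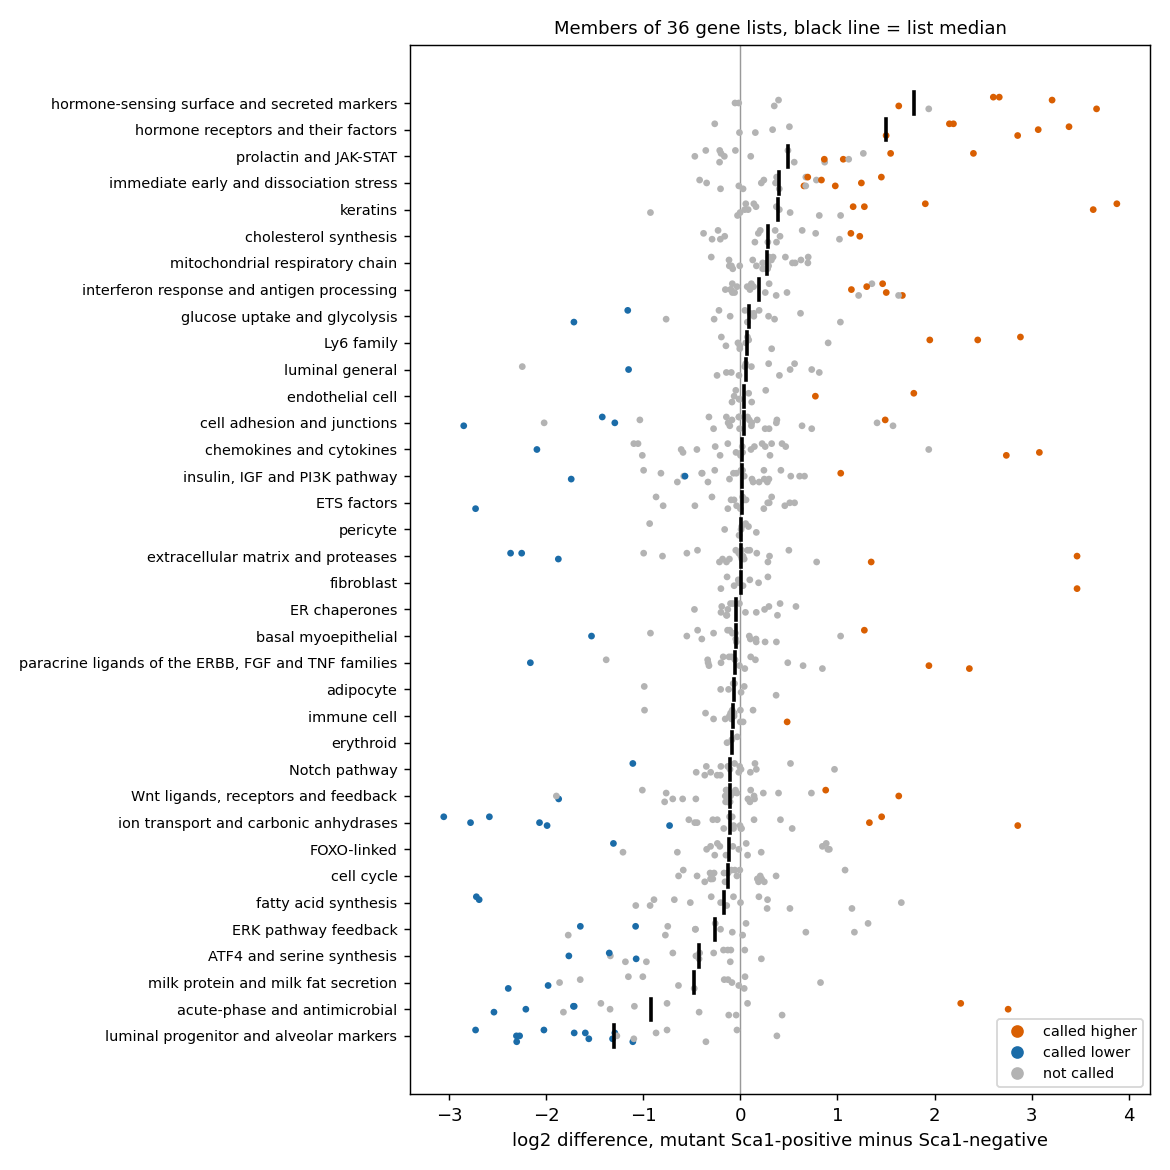
Log2 difference, Sca1-positive minus Sca1-negative mutant cells, of every measured member of 36 gene lists, 1 point per gene, coloured by call, with a black line at each list's median and lists ordered by it. The hormone-sensing lists have the highest medians (1.79 and 1.50) and the luminal progenitor list the lowest (-1.30), while most lists lie around 0.

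Markers of other cell types were measured beside these results. Dcn was the only called gene of 10 fibroblast markers. The other 9 had group means between 2.77 and 4.42 in both gates, with Pdgfra at 3.39 and 3.50 against 3.42, 3.71 and 3.61 and Col3a1 means of 3.75 and 3.72, near the array medians. The mean level of the 10, Dcn included, was 4.30 and 4.30 in the Sca1-positive and 3.85, 3.97 and 3.99 in the Sca1-negative arrays. Of 10 endothelial markers Eng and Vwf rose, by 1.79 ± 0.34 and 0.77 ± 0.13. Pecam1, Cdh5 and Kdr had means of 3.63, 3.24 and 3.11 in the Sca1-positive cells, and the mean level of the 10 was 3.66 and 3.80 against 3.42, 3.44 and 3.47. Of 17 immune markers Csf1r alone was called (5.88%, near the 4.08% of all genes). It rose by 0.48 ± 0.11 close to the array medians (3.71 and 3.97 against 3.40, 3.33 and 3.35). The mean level of the 17 was 3.53 and 3.63 against 3.68, 3.68 and 3.70, and Cd68, a lysosomal protein, was lower by 0.99 without a call (adjusted p = 0.311). No pericyte (8 measured), adipocyte (8) or erythroid (3) marker was called by limma. An unadjusted p under 0.05 was found for 1, 1 and 0 of them, beside 2514 of all 19937 genes. The part of these cell types in the results was not tested. Leaving out an array ended the calls of Csf1r (adjusted p = 0.273 without Sca1-positive replicate 3), Eng (adjusted p = 0.13 without Sca1-positive replicate 3) and Vwf (adjusted p = 0.0511 without Sca1-positive replicate 3).

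The same gates in control mice differed in fewer genes. There 152 genes were called (0.762%), 37 of them higher (0.186%) and 115 lower (0.577%) in Sca1-positive cells, and 1563 of the 19937 genes tested had an unadjusted p under 0.05. Of these 152, 111 were called in the same direction in the mutants, which is 73.0% of the control calls and 13.7% of the mutant calls, 22 of them higher and 89 lower. The 2 comparisons share no arrays, but share each gene's estimate of spread. Of the 813 genes called in the mutants 747 had a control difference of the same sign, with a median control difference of 0.42 for the 469 that rose and -0.63 for the 344 that fell. Part of the progenitor side of the contrast was called in control cells too: of the 18 progenitor genes 9 fell (median -1.82). Kit was at -2.32 beside -2.27 in the mutants, Aldh1a3 at -2.32 beside -2.30, and Ltf at -3.12 beside -1.71. With control differences of -1.69, -0.38, -0.19 and -0.60, Elf5, Sox10, Itgb3 and Hey1 were not called there (limma, adjusted p = 0.107, 0.663, 0.959 and 0.489). Each of these genes was called in the mutants, and the control arrays of Elf5 and Sox10 did not overlap between the gates. The interaction described below was called for none of them, nor for Ltf (limma, adjusted p of 0.376 or more). The 11 hormone receptor and factor genes had a control median of 0.37, with Pgr at 1.0 (adjusted p = 0.211) beside 3.38 in the mutants, Esr1 at 0.91 (adjusted p = 0.189) beside 2.15 and Foxa1 at 0.31 (adjusted p = 0.961) beside 3.07. Of the 10 surface and secreted markers of hormone-sensing cells 0 were called in controls (median 0.25). Prom1, Tph1, Fgg, Wnt5a and Fgb, called in the mutants, had control differences of 0.78, 0.51, 0.42, 0.17 and 0.05. The control count was 82 without control Sca1-negative replicate 1 and 83 without replicate 3, and the number that fell was 74 without control Sca1-positive replicate 2, whose values had a narrow spread. The number that rose was 17, 22, 19 and 24 without control Sca1-negative replicate 1, 2 or 3 or control Sca1-positive replicate 3.

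The interaction compares the distance between the gates in mutants with that in controls. Since the mutant luminal cells were GFP-positive and the controls GFP-negative, the mutant and the GFP sort cannot be told apart in it. It called 28 genes (0.14%), of which 22 (0.11%) had the more positive and 6 (0.0301%) the more negative difference in mutants. An unadjusted p under 0.05 was found for 1129 of the 19937 genes tested. All 28 were called in the mutant comparison, and 13 kept their call whichever of the 11 luminal arrays was left out. The largest was Tph1, with a difference of 3.67 in mutants and 0.51 in controls, an interaction of 3.16 (adjusted p = 0.00174). Its group means were 7.92 and 7.42 in control Sca1-positive and Sca1-negative cells and 7.06 and 3.39 in the mutants, so 3 groups were high and the mutant Sca1-negative group was low. Krt4 followed that order at 10.14, 9.09, 8.42 and 4.54 (interaction 2.82, adjusted p = 0.00113). Plac8, R3hdml, Gipc2, Stc2 and Slc7a2, a cationic amino acid transporter, had interactions of 3.05, 2.97, 2.77, 2.42 and 2.29, with mutant Sca1-negative means of 2.89, 4.24, 5.79, 6.50 and 5.86 below each of the other 3 group means. Pwwp3b differed from these, since its mutant Sca1-positive mean of 7.25 was the high one and the 3 other means lay between 3.47 and 4.28 (interaction 2.80). Il33 had means of 6.83 and 6.49 in controls and 7.87 and 4.79 in mutants (interaction 2.74, adjusted p = 0.0239). Fyb2 was the largest in the other direction, at 3.09 and 3.35 in controls and 3.61 and 6.16 in mutants (interaction -2.29, adjusted p = 0.0104). Pgr had means of 8.59 and 7.59 in control Sca1-positive and Sca1-negative cells and 8.33 and 4.94 in the mutants. In that order Foxa1 had 7.94, 7.63, 8.59 and 5.52, and Esr1 6.63, 5.72, 6.55 and 4.40. Mutant and control levels were not tested against each other here. For the receptors, the interaction was not called for Pgr (2.39, adjusted p = 0.0519), Foxa1 (2.76, adjusted p = 0.0845) or Esr1 (1.25, adjusted p = 0.431), and it was near 0 for Kit (0.05) and Aldh1a3 (0.02). The count was 46 without mutant Sca1-positive replicate 1 and 45 without control Sca1-positive replicate 1, and the number of more negative differences was 3 without either mutant Sca1-positive replicate and 10 and 14 without mutant Sca1-negative replicate 2 or 3. R3hdml, Stc2 and Slc7a2 lost the call without mutant Sca1-positive replicate 3 (adjusted p = 0.066, 0.0807 and 0.0768), Il33, Fyb2 and Slc7a2 without mutant Sca1-positive replicate 1 (0.103, 0.0509 and 0.0744). Il33 lost it also without control Sca1-negative replicate 2 or 3 or mutant Sca1-negative replicate 2 (0.0618 to 0.0738) and Slc7a2 without control Sca1-negative replicate 3, control Sca1-positive replicate 3 or mutant Sca1-negative replicate 1 (0.0557 to 0.0619).

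**Figure D5:**
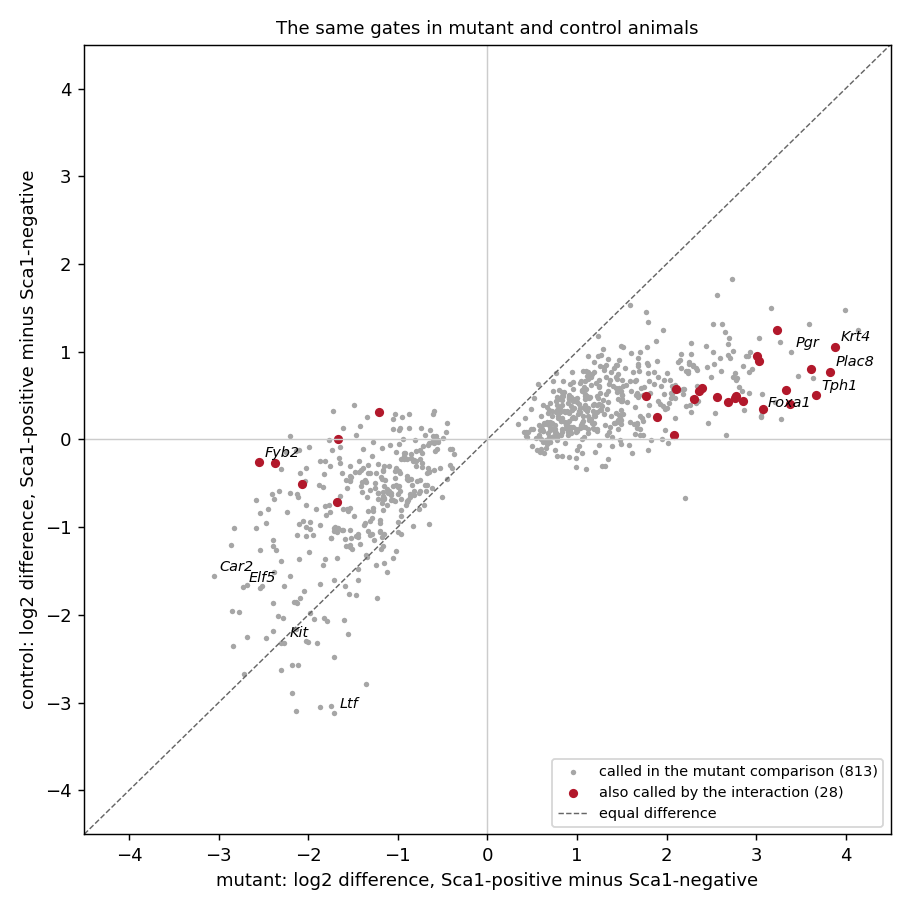
Log2 difference between the gates (Sca1-positive minus Sca1-negative) in mutant (horizontal) and control (vertical) mice for the 813 genes called in the mutants, with the 28 genes called by the interaction in red and a dashed line of equal difference. Most of the 469 genes that rose lie between the horizontal axis and the dashed line, Kit lies near the line, and Tph1, Plac8 and Krt4 lie far below it.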

How the data were processed

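RNA of sorted mammary cells was hybridised to an Affymetrix mouse gene array. The deposited log2 probe set values were used as given. The affy package is named in the submitters' processing notes, and how background and normalization were handled is not given in the sources used here. Of 34760 probe sets, 21640 carried 1 gene symbol, 1321 several and 11799 none, and only the first kind was used. Of these, 21553 matched RefSeq (GRCm38.p6) and 0 symbols changed. For 954 genes with several probe sets the one with the highest mean was taken, which left 19937 genes.

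A linear model with 1 mean for each of the 7 groups was fitted to all 20 arrays (limma 3.58.1, R 4.3.3), and p-values were adjusted by the Benjamini-Hochberg method over all genes. A gene was called at an adjusted p under 0.05. Contrasts were the 2 gates in mutants, in controls, and the difference between both (the interaction). The steps were tested on simulated data. Named genes are the 15 largest called differences in each direction, the 10 largest called interactions, the called members of 36 lists, up to 4 uncalled members of each list with the largest difference, and the genes of the sort and the transgene. Col3a1, Ifit1, Kdr, Krt18 and Ly6e fall outside this rule and were chosen after their values were seen. The comparison, the lists and their members were chosen with earlier results of these data known. Each alternative changed 1 choice. The fit without the 2 arrays of narrowest spread was added after seeing the data. Promoter windows are RefSeq's.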

Additional observations from a re-analysis of the deposited data

Results flagged for a closer look

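For 14 of the named genes the test of the interaction found that the difference between the gates itself differed between GFP-positive mutant and GFP-negative control cells. Below, the interaction is the mutant difference minus the control difference on the log2 scale.

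In 11 of them the mutant Sca1-negative mean was the lowest of the 4 luminal groups while the control Sca1-negative mean was well above it. Tph1 had an interaction of 3.16, Plac8 of 3.05, R3hdml of 2.97, Krt4 of 2.82, Gipc2 of 2.77, Il33 of 2.74, Stc2 of 2.42 and Slc7a2 of 2.29. Cav1 had one of 1.99, with means of 9.10 and 5.86 in mutant Sca1-positive and Sca1-negative cells and 8.65 and 7.41 in the controls. Lifr and Fgfr2, both receptors, had interactions of 1.81 and 1.81. Their Sca1-negative means were 8.03 and 8.31 in controls and 5.56 and 6.58 in mutants, a difference between mutant and control cells that was not tested here.

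Pwwp3b, with an interaction of 2.80, was instead high in the mutant Sca1-positive cells alone. Fyb2 (-2.29) and Trpm6 (-1.56) were highest in the mutant Sca1-negative cells, at 6.16 and 5.72. The Trpm6 call was kept in 2 of the 11 fits that left out 1 luminal array (adjusted p up to 0.18), that of Cav1 in 7 (up to 0.0695), and those of Tph1, Plac8, Krt4, Pwwp3b, Gipc2, Lifr and Fgfr2 in all 11.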

How the results depend on the processing

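Of 115 named genes called between the mutant gates 54 kept the call in every alternative tried on it (15, or 14 for Pwwp3b and Fyb2) and 61 lost it in at least 1, while 0 changed sign. With only the 5 compared arrays fitted, the calls of Sprr2f and Cxcl17 were among those lost. The mutant count was 946 with only the 5 compared arrays, 922 with only the 11 luminal arrays, 766 with a trended robust prior, 722 after quantile normalization, 781 after centring, 819 with the mean over probe sets and 799 among genes above the median level. The larger counts did not hold all of the 813 main calls. Of those, 564 were shared with the fit of the 5 compared arrays and 655 with that of the 11 luminal arrays. The share of calls that were higher was 57.7%, between 53.2% and 61.3% over the scalings. Array weights raised the counts to 1493 in the mutants (851 higher, 642 lower), 231 in the controls (80 higher) and 72 for the interaction (51 and 21); the cause was not tested. Without the 2 arrays of narrowest spread, an alternative chosen after seeing the data, 65 genes were lower in the controls and 3 interactions were negative, with fewer arrays in the fit. Leaving out 1 array gave 390 to 648 calls in the mutants (240 to 374 higher, 150 to 275 lower), 82 to 141 in the controls (17 to 46 higher, 64 to 107 lower) and 20 to 46 for the interaction (17 to 43 positive, 3 to 14 negative). Arrays with the same replicate number deviated together with r = 0.0225 and 0.0725 in the mutants and 0.0783, 0.103 and 0.126 in the controls. Mutant Sca1-positive replicate 1 gave 0.0503 with Sca1-negative replicate 2, more than with its own number. The deviations of 2 arrays from their mean are equal and opposite, so the mutant values cannot decide on pairing. The numbers were not taken to pair the samples. With the replicate number as a block the counts were 757, 150 and 32, and 697 of the 757 mutant calls were shared. With the number as a random block within genotype the mutant count was 829 at a correlation of 0.013. Every control array correlated best with the array of its own number, a hint from the data and not from the design. Signal near the array medians limits what can be said of dim genes.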

Other observations

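No gene was called by limma in the cell cycle, chaperone and respiratory chain lists. Counts of unadjusted p under 0.05 in these lists are to be read beside 2514 of all 19937 genes. Of 24 cell cycle genes 0 had an unadjusted p under 0.05 and the median difference was -0.13. Mki67, a proliferation marker, was at 4.86 and 5.43 in the Sca1-positive arrays and 5.43, 5.20 and 6.56 in the Sca1-negative arrays (adjusted p = 0.815), so Sca1-negative replicate 3 was the highest. Ccnd1, the cyclin of early cell cycle entry, was at 8.17 and 8.84 against 7.46, 6.88 and 7.94 (adjusted p = 0.687). Of 16 chaperone genes of the endoplasmic reticulum 2 had an unadjusted p under 0.05, with a median difference of -0.04. Of 24 respiratory chain genes 3 did, with a median of 0.28, and in 11 of the 24 both Sca1-positive arrays were above all Sca1-negative arrays, beside 16.2% of all genes. Cox5a, a subunit of cytochrome oxidase, had means of 9.96 and 9.40 (adjusted p = 0.118).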
